A study of Flaveria bidentis and Flaveria robusta with 100 samples.

Results

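The genes described here are BT1 (AT5G63160), BT2 (AT3G48360), BT4 (AT5G67480) and BT5 (AT4G37610), which encode BTB and TAZ domain proteins of Arabidopsis. They were chosen by gene identifier, and the family was picked because BT4 was higher in light at night in both species. Of these 4 genes, 3 have values among the 21869 gene identifiers of the deposited table, and BT1 was not analysed here. BT3 (AT1G05690), the fifth gene of the family, is given beside them.

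Mature leaves of Flaveria bidentis, a C4 plant, and of Flaveria robusta, a C3 plant, were sampled at intervals of 4 h, first over 2 days with a dark night (LD) and then over 2 days without one (LL, constant light), plus the first hour of LL day 3. Plants had spent 36 days in a greenhouse and 6 days in a chamber, lit for 10 h at 22 °C and dark for 14 h at 20 °C, and the labels name no transgene, mutation or other treatment. Each species has 25 time points, 12 in LD and 13 in LL, with 2 biological replicates each. A time point is given as its regime and day with its zeitgeber time, or ZT, which counts hours from lights on and, in LL, from the hour at which the lights had come on before. ZT12, ZT16 and ZT20 are called dark nights in LD and lit nights in LL. LL always followed LD, so constant light cannot be told apart from the day of sampling or plant age.

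BT proteins carry a BTB domain, a TAZ zinc finger and a calmodulin-binding region. In Arabidopsis they act with CUL3, the cullin scaffold of a class of ubiquitin ligases, and bind bromodomain proteins of the GTE family. BT2 is needed there for the activation of telomerase by the zinc finger factor TAC1, its transcript is lowered by sugar and is most abundant in the dark, and BT1 and BT2 repress nitrate transporter genes when nitrate is scarce.

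Values are the authors' mean RPM (reads scaled to a common library total) of a time point, in steps of 0.5 RPM. The spread between replicates and the depth per library were not used here, so every SD, SE and p-value below describes the scatter of time-point means. The libraries were made from whole leaves, so fewer cells of a type and less RNA per cell cannot be told apart. The 4 measured of 5 genes listed as mesophyll markers summed to 17211 to 31817 RPM in F. bidentis and 31325 to 92473.5 RPM in F. robusta. The highest of them were the Rubisco gene RBCS1A (mean 23571.4 RPM) and the Rubisco activase gene RCA (14401.3 RPM). Whether these genes mark mesophyll in the C4 species was not tested, so the sums are not a measure of mesophyll share. The root markers RHD6 and CASP1 were at 0 in every mean. In F. robusta, 6 means stood apart in composition: RBCS1A, a small subunit gene of Rubisco, had 18784.5 to 25177 RPM in them, against 32124.5 to 59804.5 RPM in the other 19 means. These 6 means are LD2 ZT12 and ZT16, LL2 ZT04, ZT08 and ZT20, and LL3 ZT00, and the F. robusta values of the BT genes that rest on them are given with and without them.

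BT4, BT5 and BT3 moved nearly as one. Across the 25 means of a species, Pearson's r between BT4 and BT5 on the log2 scale was 0.95 in F. bidentis and 0.99 in F. robusta. Between BT4 and BT3 it was 0.92 in F. bidentis and 0.94 in F. robusta. Where BT4 had at least 5 RPM, the ratio of BT5 to BT4 stayed between 0.471 and 0.765 in 12 F. bidentis means and between 0.643 and 0.9 in 18 F. robusta means. Reads were assigned to Arabidopsis identifiers, and whether reads of a Flaveria gene were shared out among these 3 identifiers was not tested. They are therefore not independent measurements, and the choice of BT4 by its response also bears on BT5 and BT3. BT2 did not follow them: its r with BT4 was -0.37 in F. bidentis and -0.21 in F. robusta. Points of each r share their libraries and the composition of each mean.

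**Figure D1:**
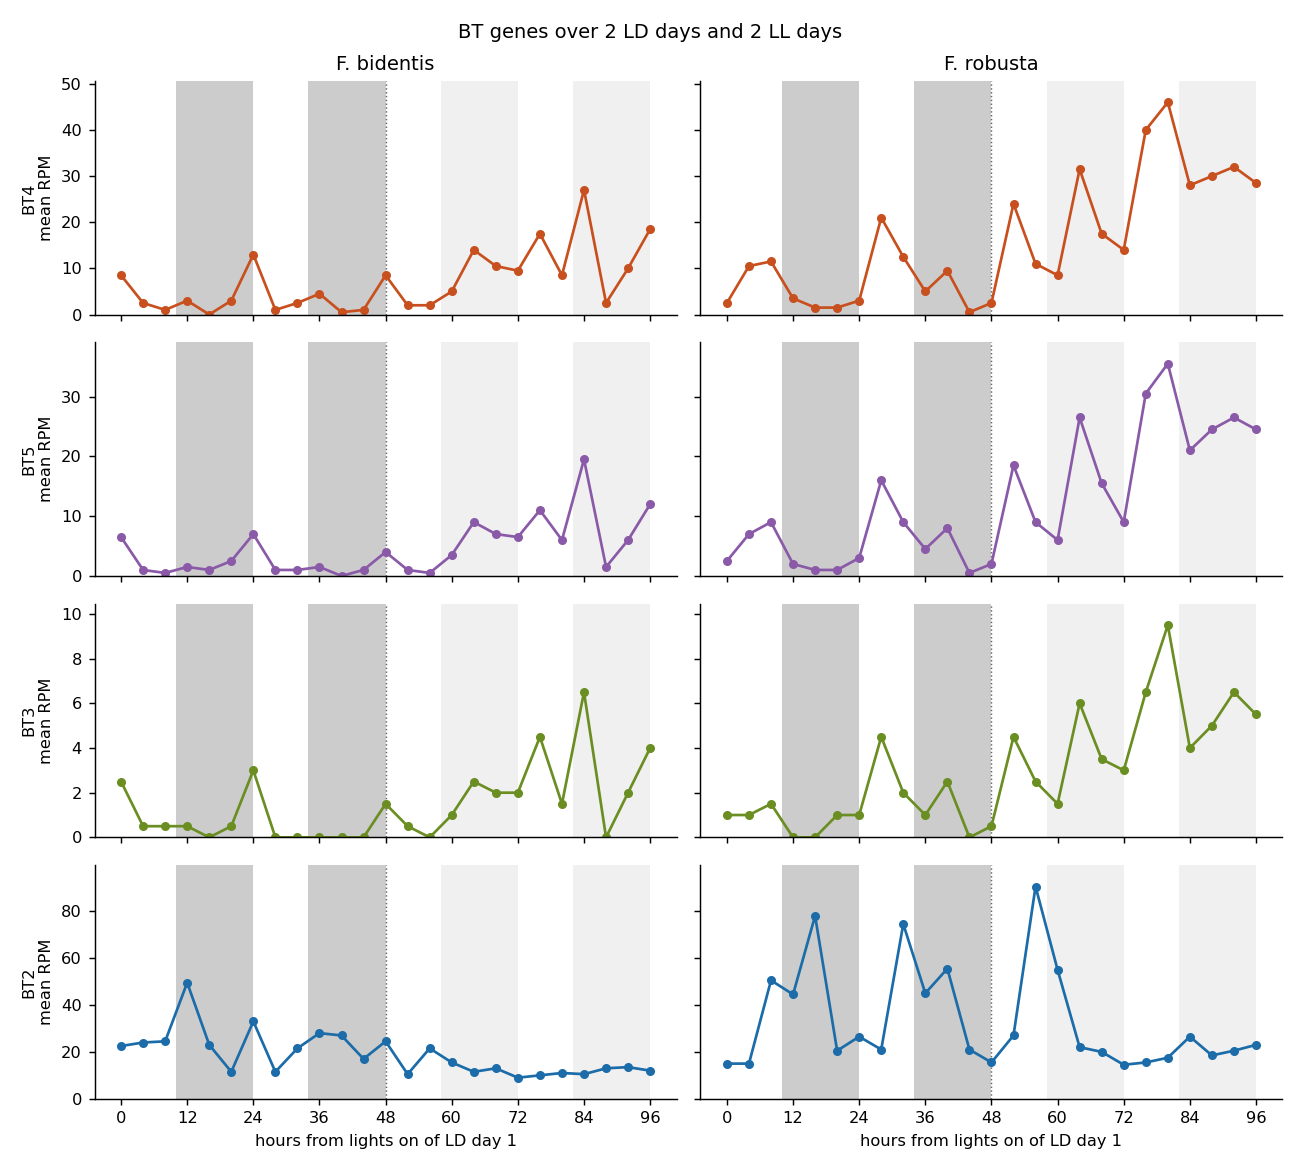
Mean RPM of BT4, BT5, BT3 and BT2 (rows) against hours from lights on of LD day 1 in F. bidentis (left) and F. robusta (right), with 25 means each. Dark grey marks dark nights, light grey the same hours in constant light, and the dotted line the start of LL day 1. BT4 reached 27 RPM in F. bidentis and 46 RPM in F. robusta, both on LL day 2, while BT2 lay between 9 and 13.5 RPM in F. bidentis on that day.

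At night, BT4 was high in light and low in darkness in both species. In F. bidentis it had 5, 14 and 10.5 RPM at ZT12, ZT16 and ZT20 of the first lit night and 27, 2.5 and 10 RPM on the second, against 3, 0 and 3 RPM on the first dark night and 4.5, 0.5 and 1 RPM on the second. In F. robusta it had 8.5, 31.5 and 17.5 RPM on the first lit night and 28, 30 and 32 RPM on the second, against 3.5, 1.5 and 1.5 RPM on the first dark night and 5, 9.5 and 0.5 RPM on the second. The lit and dark means overlapped in F. bidentis through the 2.5 RPM of LL2 ZT16, and in F. robusta through the 8.5 RPM of LL1 ZT12.

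The difference in BT4 between lit and dark nights, matched by hour on the log2(mean RPM + 1) scale, was 2.01 (SE 0.44) in F. bidentis and 2.66 (SE 0.42) in F. robusta. This contrast chose the gene, so its values are a description with no test. Among all 13563 genes tested, 5.54% were called higher and 35.4% lower in the lit nights of F. bidentis, and 1.3% higher and 5.01% lower in those of F. robusta. The median of all genes was -0.21 in F. bidentis and -0.19 in F. robusta. After TMM scaling, which scales by the bulk of genes, 1959 genes were called higher and 2106 lower in F. bidentis, where 751 and 4804 were called in the deposited values. In F. robusta, 346 genes were called higher and 201 lower after TMM, where 176 and 680 were called in the deposited values. By hour, the difference in BT4 was 1.47 at ZT12, 2.56 at ZT16 and 1.99 at ZT20 in F. bidentis, and 1.68, 2.63 and 3.67 at the same hours in F. robusta. It was thus largest at ZT20 in F. robusta, where the dark level was 1.5 RPM or lower. The increase there from ZT16 to ZT20 rests on means that stand apart, LD2 ZT16 (9.5 RPM) and LL2 ZT20 (32 RPM). Without these, BT4 had 31.5 and 30 RPM in light against 1.5 RPM in darkness at ZT16. At ZT20 it had 17.5 RPM in light against 1.5 and 0.5 RPM in darkness. Without the F. robusta means that stand apart, the difference was 2.94 (SE 0.42).

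BT5 had the same shape at a lower RPM. In F. bidentis it had 3.5, 9 and 7 RPM on the first lit night and 19.5, 1.5 and 6 RPM on the second, against 1.5, 1 and 2.5 RPM on the first dark night and 1.5, 0 and 1 RPM on the second. In F. robusta it had 6, 26.5 and 15.5 RPM on the first lit night and 21, 24.5 and 26.5 RPM on the second, against 2, 1 and 1 RPM on the first dark night and 4.5, 8 and 0.5 RPM on the second. The log2 difference was 1.75 (SE 0.41) in F. bidentis and 2.62 (SE 0.43) in F. robusta, where it was 3.01 without the means that stand apart. BT3, which never passed 9.5 RPM, differed by 1.29 (SE 0.35) in F. bidentis and 1.72 (SE 0.33) in F. robusta, or 2.06 there without those means.

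BT2 went the other way. In F. bidentis it had 15.5, 11.5 and 13 RPM on the first lit night and 10.5, 13 and 13.5 RPM on the second, against 49.5, 23 and 11.5 RPM on the first dark night and 28, 27 and 17 RPM on the second. In F. robusta it had 55, 22 and 20 RPM on the first lit night and 26.5, 18.5 and 20.5 RPM on the second, against 44.5, 78 and 20.5 RPM on the first dark night and 45, 55.5 and 21 RPM on the second. Lit and dark means overlapped in both species. The log2 difference was -0.84 (SE 0.22) in F. bidentis and -0.64 (SE 0.26) in F. robusta, and -0.61 and -0.43 after TMM. Without the means that stand apart it was -0.72 in F. robusta. It was largest early in the night in F. bidentis, at -1.47 at ZT12 and -0.97 at ZT16, and at ZT16 in F. robusta, at -1.66. At ZT20 it was -0.07 in F. bidentis and -0.03 in F. robusta, where lit and dark levels were alike.

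**Figure D2:**
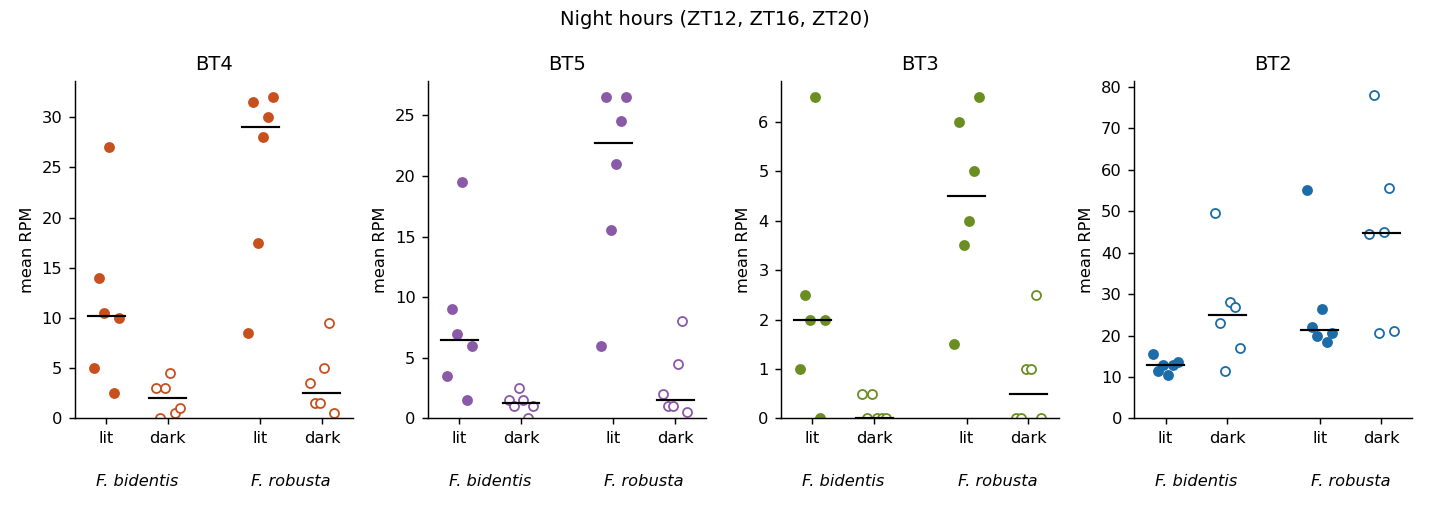
Mean RPM at ZT12, ZT16 and ZT20 in lit nights (filled) and dark nights (open), 6 means per group, with the median as a line, for BT4, BT5, BT3 and BT2 in each species. The median of BT4 was 10.25 RPM in lit and 2 RPM in dark nights of F. bidentis, and 29 RPM in lit and 2.5 RPM in dark nights of F. robusta, while BT2 had medians of 13 and 25 RPM in F. bidentis and 21.25 and 44.75 RPM in F. robusta.

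Markers of stress and of other cell types were read in the same nights. Their sums weigh most on the genes of highest level. Over all means these were HSP70-4 (756.85 RPM) and LOX2 (321.94 RPM) for stress and SUC2 (141.82 RPM) for vascular markers. For guard cell markers it was HT1 (30.19 RPM), and for dividing cell markers H4 (104.29 RPM). The 5 measured of 6 heat and wound stress markers summed to 778.5 to 1059 RPM in lit and 1141 to 2764 RPM in dark nights of F. bidentis. There 35.4% of all genes were called lower in the light. In F. robusta these markers summed to 783.5 to 1224.5 RPM in lit and 685.5 to 2058 RPM in dark nights. The 5 vascular markers summed to 193.5 to 323.5 RPM in lit and 272.5 to 349.5 RPM in dark nights of F. bidentis, and to 187 to 346.5 RPM and 211.5 to 360 RPM in F. robusta. The 3 measured of 5 guard cell markers summed to 42 to 57.5 RPM in lit and 48.5 to 68 RPM in dark nights of F. bidentis, and to 39.5 to 65 RPM and 52 to 73.5 RPM in F. robusta. The 4 measured of 5 dividing cell markers summed to 86.5 to 270 RPM in lit and 93 to 428.5 RPM in dark nights of F. bidentis, and to 58 to 91 RPM and 51 to 105.5 RPM in F. robusta. The part of these markers in the BT values was not tested.

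The second lit night was set against the first, to ask whether the level in light kept moving. All means used here are lit night means, which entered the choice of BT4. The choice set them against dark nights and not against each other. BT5 followed BT4, so neither test is free of the choice. No measured member was called in either species. In F. robusta, BT4 had 28, 30 and 32 RPM on the second lit night, against 8.5, 31.5 and 17.5 RPM on the first, a log2 difference of 0.79 (SE 0.31, limma adjusted p = 0.834), or 0.77 (adjusted p = 0.570) without LL2 ZT20, the mean there that stands apart. BT5 differed by 0.76 (SE 0.32, adjusted p = 0.956) and BT2 by -0.41 (SE 0.27, adjusted p = 1) in F. robusta, or by 0.77 and -0.63 without LL2 ZT20. In F. bidentis, the differences were 0.02 (SE 1.04) for BT4, -0.002 (SE 1.001) for BT5 and -0.10 (SE 0.16) for BT2. The large errors of BT4 and BT5 reflect opposite moves by hour: BT4 differed by 2.22 at ZT12 and by -2.10 at ZT16. Few genes were called at all: 0.00737% higher and 0% lower in F. bidentis, and 0.118% higher and 0.0295% lower in F. robusta. At an unadjusted p under 0.05, limma called 222 genes higher and 1266 lower in F. bidentis, and 444 higher and 157 lower in F. robusta. After TMM, 0 genes passed the adjusted threshold in either species.

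The hours after a skipped night asked whether BT levels by day also differed once a night had been lit. These hours use none of the ZT12, ZT16 and ZT20 values that chose BT4, although LL again followed LD. Whether leaves at ZT00 were taken before or after the lights came on was not established here. The ZT00 means after a dark night may therefore still reflect the dark night. BT4 and BT5 rose in both species after a lit night, and BT2 fell in F. bidentis. In F. bidentis, BT4 had 9.5, 17.5 and 8.5 RPM at ZT00, ZT04 and ZT08 of LL day 2 and 18.5 RPM at ZT00 of LL day 3. After a dark night it had 8.5, 2.5 and 1 RPM on LD day 1, 13, 1 and 2.5 RPM on LD day 2, and 8.5, 2 and 2 RPM on LL day 1. The sets overlapped at ZT00 but not at ZT04 or ZT08, beside 8.39% of all genes called higher in this comparison. How many genes separate by hour was not counted.

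In F. robusta, BT4 had 14, 40 and 46 RPM at ZT00, ZT04 and ZT08 of LL day 2 and 28.5 RPM at ZT00 of LL day 3. After a dark night it had 2.5, 10.5 and 11.5 RPM on LD day 1, 3, 21 and 12.5 RPM on LD day 2, and 2.5, 24 and 11 RPM on LL day 1. At each of the 3 hours the means after a lit night lay above all those after a dark night, beside 43.1% of all genes called higher in this comparison. The means at LL2 ZT04, LL2 ZT08 and LL3 ZT00 are among those that stand apart. How many genes separate by hour was not counted.

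The log2 difference in BT4, matched by hour, was 1.44 (SE 0.35, limma adjusted p = 0.0152) in F. bidentis and 1.97 (SE 0.25, adjusted p = 0.000103) in F. robusta. BT5 rose by 1.55 (SE 0.30, adjusted p = 0.00448) in F. bidentis and by 1.83 (SE 0.27, adjusted p = 0.000306) in F. robusta. Its values were 6.5, 11, 6 and 12 RPM after a lit night, against 0.5 to 7 RPM with a median of 1 RPM after a dark night, in F. bidentis, and 9, 30.5, 35.5 and 24.5 RPM, against 2 to 18.5 RPM with a median of 9 RPM, in F. robusta. BT3 rose by 0.996 (SE 0.28, adjusted p = 0.0319) in F. bidentis and by 1.43 (SE 0.26, adjusted p = 0.000936) in F. robusta. Whether the rise differed between the species was not tested.

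BT2 had 9, 10, 11 and 12 RPM after a lit night in F. bidentis, against 10.5 to 33 RPM with a median of 22.5 RPM after a dark night. It fell by 0.96 on the log2 scale (SE 0.20, adjusted p = 0.00729). In F. robusta it had 14.5, 15.5, 17.5 and 23 RPM after a lit night, against 15 to 90.5 RPM with a median of 26.5 RPM after a dark night, a difference of -0.65 (SE 0.30, adjusted p = 0.0953) that did not pass. The largest difference by hour was at ZT08, where BT2 had 17.5 RPM after a lit night, against 50.5, 74.5 and 90.5 RPM after a dark night.

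In F. bidentis, 2 of 3 measured members were called higher and 1 lower after a lit night, beside 8.39% of all genes higher and 5.92% lower. In F. robusta, 2 of 3 were called higher and 0 lower, beside 43.1% and 3.97% of all genes. The share called higher was thus large there, and the median of all genes was 0.35 on the log2 scale. After TMM the median was -0.01, with 1841 genes called higher and 1785 lower, where 5849 and 539 were called in the deposited values. BT4 then differed by 1.59 (adjusted p = 0.000917), BT5 by 1.45 (adjusted p = 0.00160), and BT2 by -1.04 (adjusted p = 0.0241). Of the 4 F. robusta means after a lit night, 3 are among those that stand apart. Without them, LL2 ZT00 alone gave 2.04 for BT4, 1.52 for BT5, -0.32 for BT2 and 1.14 for BT3. These values rest on 1 mean at ZT00. At that hour BT4 after a dark night had 2.5 to 3 RPM, within its 0.5 to 9.5 RPM in dark nights. For BT4 in F. bidentis, the call was lost without LL2 ZT04 (0.93, adjusted p = 0.0800) and without LL day 1 (1.46, adjusted p = 0.0753).

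**Figure D3:**
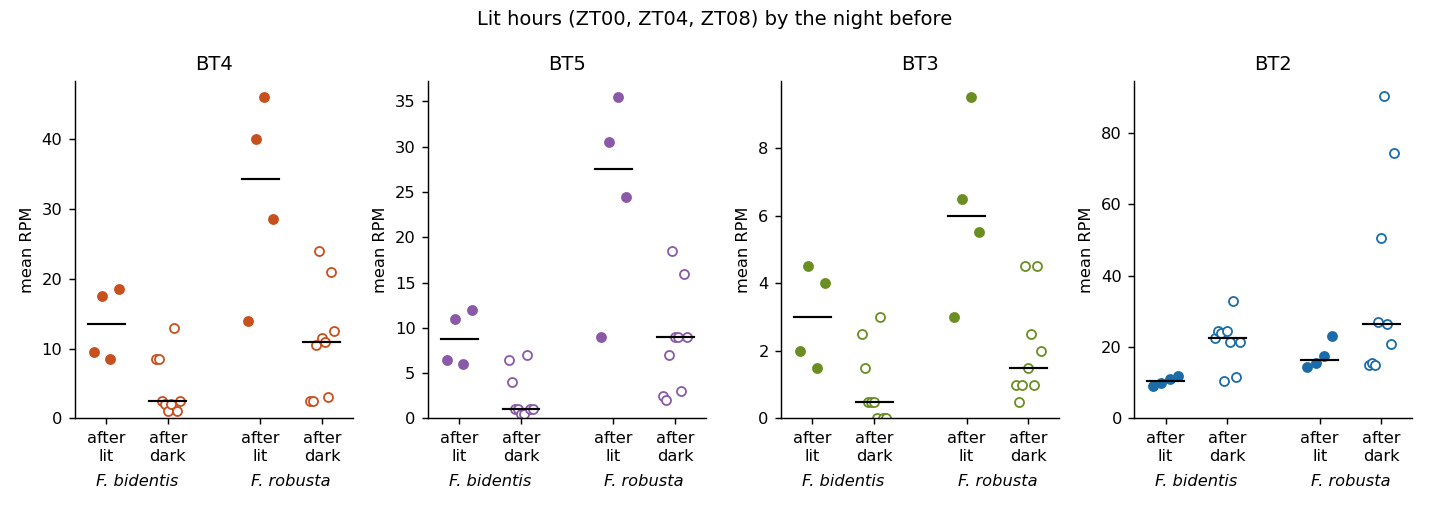
Mean RPM at ZT00, ZT04 and ZT08 after a lit night (filled, 4 means) and after a dark night (open, 9 means), with the median as a line, for BT4, BT5, BT3 and BT2 in each species. BT4 had a median of 13.5 RPM after lit and 2.5 RPM after dark nights in F. bidentis, and of 34.25 RPM and 11 RPM in F. robusta. In F. robusta, all means after a lit night but LL2 ZT00 (14 RPM for BT4) stand apart in composition.

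The heat and wound stress markers summed to 664.5 to 795.5 RPM after a lit night and 891 to 1686.5 RPM after a dark night in F. bidentis. These sums did not overlap, beside 5.92% of all genes called lower there, and how many genes separate in this way was not counted. In F. robusta the same markers summed to 925 to 1178 RPM and 651.5 to 1529 RPM. The vascular markers summed to 195.5 to 264.5 RPM after a lit and 160 to 288.5 RPM after a dark night in F. bidentis, and to 201 to 436.5 RPM and 127 to 255.5 RPM in F. robusta. The guard cell markers summed to 43 to 47.5 RPM after a lit and 31.5 to 47 RPM after a dark night in F. bidentis, and to 45 to 64 RPM and 36.5 to 47 RPM in F. robusta, where their median was 61 RPM after a lit and 43 RPM after a dark night. The genes listed as mesophyll markers, led by RBCS1A and RCA, summed to 23901.5 to 24777.5 RPM after a lit and 22077.5 to 31817 RPM after a dark night in F. bidentis. In F. robusta they summed to 35867.5 to 92473.5 RPM and 60432 to 88790 RPM. The dividing cell markers summed to 87.5 to 223 RPM after a lit and 80.5 to 245 RPM after a dark night in F. bidentis, and to 52 to 82 RPM and 41.5 to 89 RPM in F. robusta. The part of these markers in the BT values was not tested.

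By median, BT4 in F. robusta was highest in lit hours after a lit night (34.25 RPM), followed by lit nights (29 RPM), lit hours after a dark night (11 RPM) and dark nights (2.5 RPM). The top of this order rests on the means that stand apart. All F. robusta means after a lit night but LL2 ZT00 are among them. LL2 ZT00 had 14 RPM, against 8.5 to 31.5 RPM in the lit night means that do not stand apart. In F. bidentis the order was the same, with 13.5 RPM in lit hours after a lit night, 10.25 RPM in lit nights, 2.5 RPM in lit hours after a dark night and 2 RPM in dark nights. Neighbours at the top of the order overlapped in both species, with 14 to 46 RPM after a lit night and 8.5 to 32 RPM in lit nights of F. robusta. The lowest pair also overlapped, with 1 to 13 RPM in lit hours after a dark night and 0 to 4.5 RPM in dark nights of F. bidentis.

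Within a normal day, BT4 and BT5 had opposite timing in the morning in the 2 species. On the 3 mornings that followed a dark night, BT4 had 8.5, 13 and 8.5 RPM at ZT00 and 2.5, 1 and 2 RPM at ZT04 in F. bidentis. In F. robusta it had 2.5, 3 and 2.5 RPM at ZT00 and 10.5, 21 and 24 RPM at ZT04. The change over these 4 h was thus -1.44, -2.81 and -1.66 on the log2 scale in F. bidentis, against 1.72, 2.46 and 2.84 in F. robusta. BT5 changed by -1.91, -2 and -1.32 in F. bidentis and by 1.19, 2.09 and 2.70 in F. robusta. Every morning went down in F. bidentis and up in F. robusta for both genes, which are not independent measurements. How many of all genes moved in these opposite directions was not counted. BT3 showed the same signs, except for a change of 0 on LD day 1 of F. robusta. BT2 had no shared direction, with 0.09, -1.44 and -1.15 in F. bidentis, against 0, -0.32 and 0.76 in F. robusta.

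**Figure D4:**
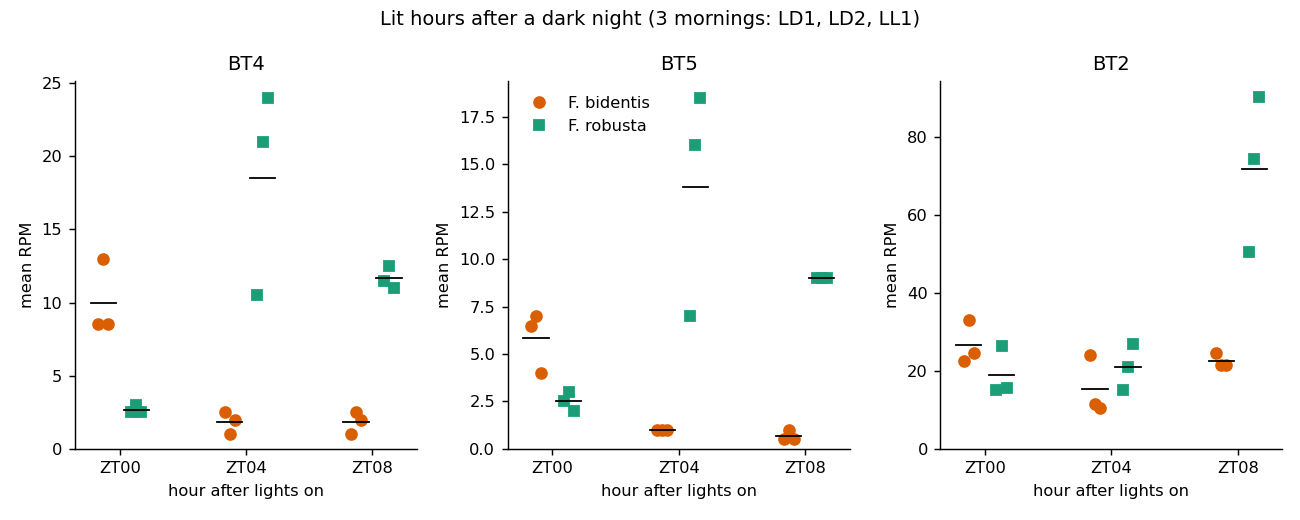
Mean RPM at ZT00, ZT04 and ZT08 on the 3 days whose preceding night was dark (LD day 1, LD day 2 and LL day 1), for BT4, BT5 and BT2, with F. bidentis as circles, F. robusta as squares and the mean of 3 as a line. At ZT04, BT4 had 1 to 2.5 RPM in F. bidentis and 10.5 to 24 RPM in F. robusta, while at ZT00 it had 8.5 to 13 RPM and 2.5 to 3 RPM.

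The rhythm over the 12 LD means was measured as the peak-to-trough span of a fitted 24 h curve. For BT4 the span is a description, since its dark night values entered the contrast that chose it: 1.29 log2 units (SE 0.82) peaking at 1.42 h (SE 2.38) in F. bidentis, and 2.84 (SE 0.53) peaking at 6.72 h (SE 0.71) in F. robusta, or 3.29 there without the means that stand apart. For BT5 it was 1.35 (SE 0.53, limma adjusted p = 0.1002) peaking at 23.1 h (SE 1.62) in F. bidentis and 2.64 (SE 0.52, adjusted p = 0.00255) peaking at 6.36 h (SE 0.73) in F. robusta, or 3.11 there (adjusted p = 8.24e-05) without those means. BT5 followed BT4 closely, so its test is not independent of the choice. With an added 12 h term, which lets the curve take sharper shapes, BT5 passed in F. bidentis too (adjusted p = 0.00304).

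The fitted curve of BT2 was highest near ZT12. Its span was 0.81 (SE 0.40, adjusted p = 0.204) with a peak at 12.5 h (SE 1.94) in F. bidentis and 1.82 (SE 0.37, adjusted p = 0.00336) with a peak at 12.2 h (SE 0.81) in F. robusta, or 2.08 there (adjusted p = 0.00632) without the means that stand apart. The highest mean of a day was at ZT12 and then ZT00 on the LD days of F. bidentis, and at ZT16 and then ZT08 on those of F. robusta. Of the 2 members tested for a rhythm, 0 were called in F. bidentis, where 67.3% of all genes were, and 2 in F. robusta, where 65.4% were. A call of a rhythm is thus the usual outcome in these data.

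The species difference in rhythm was tested on its own for BT5 and BT2. BT5 passed (adjusted p = 0.0320), with spans of 1.35 for F. bidentis and 2.64 for F. robusta and a difference curve spanning 3.33 log2 units. As BT5 followed BT4 closely, this test is not independent of the choice of BT4. BT2 did not pass (adjusted p = 0.499). The difference curve of BT4 spanned 2.90, which is a description with no test, since the same dark night means enter it. This is 1 of 2 members tested, beside 9.03% of all genes. The BT5 call was lost with a pseudocount of 0.1 (adjusted p = 0.110) and without any of 9 of the 12 time points taken singly (adjusted p up to 0.108). Without the F. robusta means that stand apart it stood (adjusted p = 0.00444).

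In LL the hour of the highest BT4 mean differed from LD, except on LL day 2 of F. robusta. BT4 peaked at ZT00 on both LD days in F. bidentis, at ZT16 on LL day 1 and at ZT12 on LL day 2. In F. robusta it peaked at ZT08 and ZT04 on the LD days, at ZT16 on LL day 1 and at ZT08 on LL day 2. The last peak rests on a mean that stands apart, as do LL2 ZT04 and ZT20. The other means of that day were 14 RPM at ZT00, 28 RPM at ZT12 and 30 RPM at ZT16. The log2 range of BT4 within a day was 3.25, 3.22, 2.32 and 3 over these 4 days in F. bidentis. In F. robusta it was 2.32, 3.87, 3.22 and 1.65, where the last rests on LL2 ZT08. The range of BT2 was 2.01, 1.44, 1.15 and 0.54 in F. bidentis, against 2.30, 1.78, 2.47 and 0.83 in F. robusta, lowest on LL day 2 in both.

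F. bidentis had less of each measured BT transcript than F. robusta in constant light. Over the 13 LL means, BT4 averaged 10.4 ± 7.33 RPM in F. bidentis and 24.1 ± 12.7 RPM in F. robusta (SD over time points), a log2 difference at matched times of -1.19 (SE 0.30, limma adjusted p = 0.00253). BT5 averaged 6.73 ± 5.26 RPM in F. bidentis and 19.2 ± 10.2 RPM in F. robusta, a difference of -1.46 (SE 0.30, adjusted p = 0.000412). BT2 averaged 13.5 ± 4.59 RPM in F. bidentis and 28.2 ± 21.4 RPM in F. robusta, a difference of -0.84 (SE 0.16, adjusted p = 0.000160). BT3 differed by -0.88 (SE 0.24, adjusted p = 0.00401). All 3 measured members were thus called lower in F. bidentis, beside 41.8% of all genes called lower and 26% called higher. The median of all genes was -0.13, and the split of calls was 4767 higher and 4889 lower after TMM, where 3521 and 5668 were called in the deposited values. After TMM the differences were -1.05 for BT4, -1.33 for BT5 and -0.70 for BT2, and all 3 passed. Of the 13 LL means of each species, 6 are lit night means, which entered the choice of BT4. Over the 7 LL means at ZT00, ZT04 and ZT08 alone, an alternative chosen after seeing the data, the differences were -1.17 for BT4 (SE 0.42, adjusted p = 0.0374), -1.49 for BT5 (SE 0.41, adjusted p = 0.00976) and -0.77 for BT2 (SE 0.24, adjusted p = 0.0186). Without the F. robusta means that stand apart they were -1.09 for BT4 (adjusted p = 0.0287), -1.37 for BT5 (adjusted p = 0.00890), -0.92 for BT2 (adjusted p = 0.00257) and -0.81 for BT3 (adjusted p = 0.0362).

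In LD the difference was smaller and less certain. BT2 averaged 24.4 ± 10.1 RPM in F. bidentis and 38.9 ± 22.5 RPM in F. robusta over 12 means, a log2 difference of -0.53 (SE 0.21, adjusted p = 0.0340). That call was lost without any of 7 of the 12 time points taken singly (adjusted p up to 0.0767) and without the F. robusta means that stand apart (-0.47, adjusted p = 0.101). BT4 averaged 3.38 ± 3.80 RPM in F. bidentis and 6.88 ± 6.18 RPM in F. robusta, a difference of -0.82 (SE 0.43, adjusted p = 0.108), or -0.69 without the means that stand apart, and its dark night means entered its choice. BT5 averaged 2.04 ± 2.28 RPM in F. bidentis and 5.29 ± 4.64 RPM in F. robusta, a difference of -0.95 (SE 0.41, adjusted p = 0.0547), or -0.71 without those means. This is 1 of 3 measured members called lower and 0 higher in F. bidentis, beside 32.5% of all genes called lower and 32.3% called higher. Reads of both species were assigned to Arabidopsis genes, and how well each species' reads matched was not tested.

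Of the listed partners of BT proteins, 2 of 6 were tested. CUL3A, the cullin, and GTE11, a bromodomain protein that BT proteins bind in Arabidopsis, differed less than the BT genes at night. GTE11 was lower by night in the light in F. bidentis (-0.47, SE 0.11, adjusted p = 0.00559), as was CUL3A (-0.24, SE 0.08, adjusted p = 0.0321), beside 35.4% of all genes. Neither partner passed in F. robusta or after TMM in either species. TAC1 was listed at 0 in every mean, and TERT, the telomerase subunit, averaged 0.01 RPM. GTE11 was lower in F. bidentis than in F. robusta, by 0.37 on the log2 scale in LD (adjusted p = 0.000352) and by 0.78 in LL (adjusted p = 3.59e-06). Of all genes, 32.5% were called lower in LD and 41.8% in LL. After a lit night both partners were called higher in F. robusta (GTE11 by 0.58, CUL3A by 0.53), beside 43.1% of all genes, but 0 were after TMM. Without the means that stand apart, the median of the 2 was 0.06, from LL2 ZT00 alone.

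Of the nitrate response genes, 12 of 15 listed were tested, and none was called higher by night in the light in either species. In F. bidentis 0 were called higher and 9 lower, beside 5.54% of all genes higher and 35.4% lower, with a list median of -0.67, beside -0.21 over all genes. Among them were HRS1, a MYB factor of the nitrate response (-1.04, adjusted p = 0.000155), LBD39, a LOB domain repressor (-0.90, adjusted p = 0.00305), the kinase CIPK8 (-0.59, adjusted p = 0.00390) and the regulator NLP7 (-0.47, adjusted p = 0.00732). After TMM 3 were called lower. In F. robusta, 0 were called higher and 1 lower, LBD39 (-0.86, adjusted p = 0.0159), beside 1.3% and 5.01% of all genes, with a list median of -0.55. After TMM, and without the means that stand apart, 0 were called.

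After a lit night, 0 nitrate genes were called higher and 5 lower by day in F. bidentis, with CIPK23 (-0.61), CIPK8 (-0.76), TGA4 (-0.70) and HRS1 (-1.06) among them, beside 8.39% and 5.92% of all genes. In F. robusta, 1 was called higher, CIPK23 (0.76, adjusted p = 0.0359, named after its value was seen), and 6 lower, beside 43.1% and 3.97% of all genes. The nitrate reductase genes NIA1 and NIA2 led there, at -2.31 (SE 0.20, adjusted p = 8.32e-06) and -2.36 (SE 0.22, adjusted p = 9.62e-06). NIA1 had 93 to 247 RPM after a lit night and 354.5 to 1145.5 RPM after a dark night in F. robusta. NIA1 and NIA2 are close copies, and a sharing of reads between them was not tested. After TMM, 0 were called higher and 8 lower, and without the means that stand apart 0 higher and 7 lower.

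Genes of the sugar and dark response, 14 tested of 17 listed, include genes that, like BT2, are known in Arabidopsis to fall with sugar. By night in the light, 1 was called higher and 9 lower in F. bidentis, beside 5.54% and 35.4% of all genes, with a median of -0.65. The class II trehalose phosphate synthase genes TPS9 (-2.37, adjusted p = 3.4e-07), TPS10 (-2.56, adjusted p = 3.4e-07) and TPS11 (-1.95, adjusted p = 7.68e-07) led, with DIN10, a raffinose synthase family gene (-1.35, adjusted p = 9.05e-06). TPS10 had 9 to 16 RPM in lit and 54 to 116.5 RPM in dark nights of F. bidentis, and 8.5 to 11.5 RPM in lit and 19 to 29 RPM in dark nights of F. robusta. BZIP11, whose translation sucrose represses in Arabidopsis, was the member called higher (0.49, adjusted p = 0.0167, named after its value was seen). In F. robusta, TPS9 (-1.20), TPS10 (-1.08) and TPS11 (-0.98) were the 3 called lower and 0 were called higher, beside 5.01% and 1.3% of all genes. Without the means that stand apart the counts were also 3 and 0. After TMM, 1 was called higher and 7 lower in F. bidentis, and 1 higher and 3 lower in F. robusta.

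After a lit night, 1 sugar and dark response gene was called higher by day in F. bidentis and 5 lower, among them BZIP11 (0.97, adjusted p = 0.00505), TPS10 (-1.64, adjusted p = 0.0145) and DIN1 (-1.46, adjusted p = 0.0168), beside 8.39% and 5.92% of all genes. In F. robusta, 5 were called higher and 3 lower, with BZIP11 at 1.42 (adjusted p = 0.000235), DIN10 at -0.78 (adjusted p = 0.00108) and TPS10 at -0.94 (adjusted p = 0.00336), beside 43.1% and 3.97% of all genes. After TMM the F. robusta counts were 1 higher and 5 lower, and without the means that stand apart 0 higher and 4 lower.

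**Figure D5:**
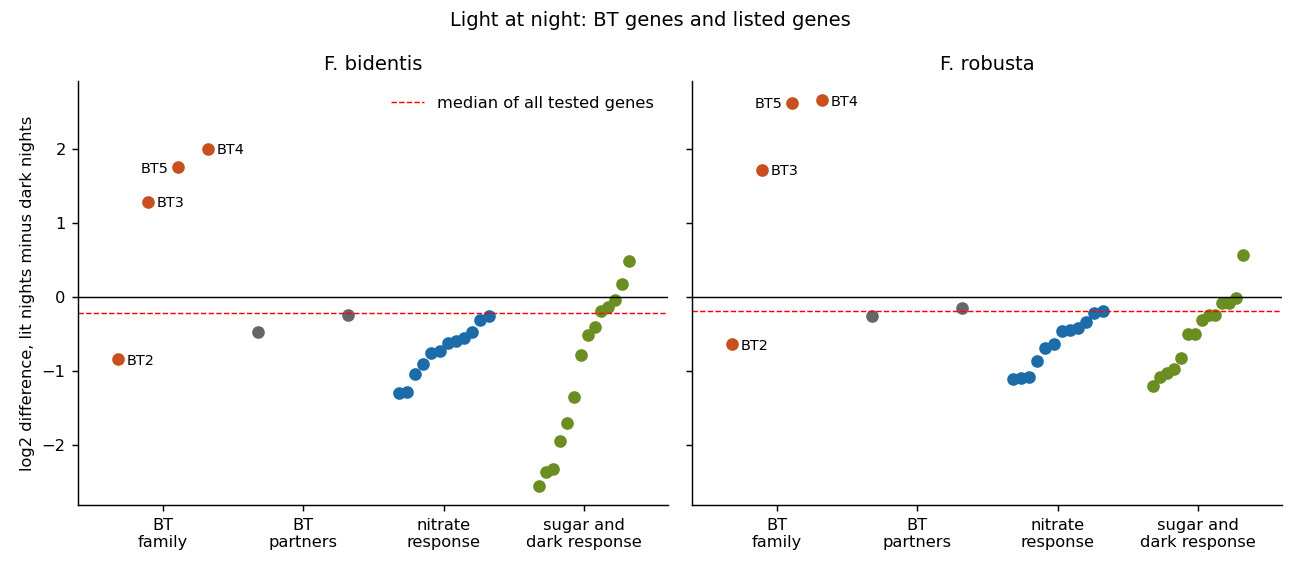
Log2 difference between lit and dark nights (lit minus dark, log2(mean RPM + 1)) for the BT genes, their tested partners, and tested nitrate response and sugar and dark response genes in each species, with 1 point per gene sorted within a list. The dashed line is the median of all tested genes, -0.21 in F. bidentis and -0.19 in F. robusta. BT4, BT5 and BT3 lie between 1.29 and 2.01 in F. bidentis and between 1.72 and 2.66 in F. robusta, and BT2 lies at -0.84 and -0.64.

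The LD rhythm test called 10 of the 12 nitrate genes in F. bidentis and 8 in F. robusta, beside 67.3% and 65.4% of all genes. It called 5 of the 14 sugar and dark response genes in F. bidentis and 11 of them in F. robusta, or 9 there without the means that stand apart. The span of DRM1, a dormancy-associated gene, was 3.05 for F. bidentis and 4.47 for F. robusta on the log2 scale. Between species, 5 nitrate genes were called higher and 1 lower in F. bidentis in LD, where NLP7 (1.37) had the smallest adjusted p, and 7 higher and 2 lower in LL. For the sugar and dark response list the counts were 10 higher and 3 lower in LD, where TPS10 (1.61) had the smallest adjusted p, and 7 higher and 3 lower in LL. All genes were called higher at 32.3% and lower at 32.5% in LD, and at 26% and 41.8% in LL. No gene of either list was called between the second and the first lit night.

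The genes whose pattern was most like that of each member were ranked by the lower of the 2 species' Pearson r over 25 means, among 7993 genes with a description and a mean of at least 10 RPM, leaving out the BT genes themselves. For BT2 they were AT5G22920 (0.83 for F. bidentis and 0.84 for F. robusta) and AT5G25560 (0.79 and 0.77), both described as CHY-type and RING-type zinc finger proteins, and AT5G42260, a beta glucosidase (0.77 and 0.82). For BT4 they were AT5G13930, the chalcone synthase gene of flavonoid synthesis (0.69 and 0.71), AT1G06690, an NAD(P)-linked oxidoreductase (0.69 and 0.71), and AT3G22890, an ATP sulfurylase (0.68 and 0.67). For BT5 they were AT5G13930 (0.80 and 0.73), AT1G11700, of unknown function (0.72 and 0.75), and AT1G06690 (0.70 and 0.71). These r values are descriptions, and the 25 means of a species share its light schedule and composition.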

How the data were processed

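RNA was sequenced from mature leaves in 100 libraries of 50 groups, with reads of 100 bp and 12 libraries to a lane, per the labels' protocols. CASAVA and the Arabidopsis build TAIR 10 are named in the submitters' processing notes. No source used here names the aligner or its settings. The deposited RPM values were scaled by the authors to a common total per library and averaged by them over a time point. The 50 columns of means were used, which sum to 999417.5 to 1000090 RPM. The other 200 columns, values of single libraries, carry numbers that match no sample title. They were not used, so no depth or replicate spread is given here and the count test planned for such columns was not run.

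Values were analysed as log2(mean RPM + 1) with limma 3.58.1 in R 4.3.3, using lmFit and a robust eBayes with an intensity trend. The 13563 genes averaging at least 1 RPM were tested, with Benjamini-Hochberg adjustment over all of them and a threshold of 0.05. The pseudocount understates differences of low genes. Rhythms were F tests of a 24 h cosine and sine beside a linear trend. Lit and dark hours were compared within hour of day. Alternatives were TMM scaling (trimming 30% of M and 5% of A values), a pseudocount of 0.1, a minimum of 5 RPM or none, no trend, an added 12 h term, LL day 1 left out, and each time point left out. Leaving out the 6 F. robusta means with RBCS1A under 30000 RPM was chosen after seeing the data, as was a comparison of LL levels over lit hours alone. The fits were also run on simulated data, with independent scatter around a flat level per gene and known changes added to some genes. That setting lacks the 0.5 RPM steps and the composition shifts of these data, and its outcome is not used here. Members, lists, tests and alternatives were chosen with earlier results of these data known. Listed genes are named by up to 4 smallest adjusted p-values per comparison, or where their level is described. The NIA and class II TPS genes have close copies, so their values may share reads.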

Additional observations from a re-analysis of the deposited data

Results flagged for a closer look

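BT5 was flagged because its LD rhythm differed between F. bidentis and F. robusta in the test of the difference itself (limma adjusted p = 0.0320). Its fitted span was 1.35 log2 units peaking at 23.1 h in F. bidentis and 2.64 log2 units peaking at 6.36 h in F. robusta. The adjusted p ranged from 0.00316 with an added 12 h term to 0.110 with a pseudocount of 0.1. The call stood in only 3 of the 12 fits that each left out a single time point (adjusted p up to 0.108). BT5 followed BT4 closely, so its test is not independent of the choice of BT4.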

How the results depend on the processing

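No paired analysis was possible because the columns used are means that carry no replicate number. Among the results of BT2, BT4 and BT5, 504 of the values under the alternatives kept their direction and their side of the threshold (or, untested, moved by less than the scatter of the means), and 45 did not. Among those that did not, without the F. robusta means that stand apart the LD level of BT2 differed between species by -0.47 and no longer passed. With a pseudocount of 0.1, the difference curve of BT5 spanned 4.30 and no longer passed, while untested values moved to 2.52 for the LD span of BT4 and to 2.92 for BT4 and 2.63 for BT5 in light at night, all of them F. bidentis values. Adding a 12 h term let the LD span of BT5 in F. bidentis (1.39) pass. Without LL day 1, BT4 by day after a lit night (1.46) no longer passed in F. bidentis. After TMM, BT2 by day after a lit night in F. robusta (-1.04) passed. Uncalled differences between lit nights in F. bidentis changed sign after TMM (BT2 0.019, BT5 0.097) and with the pseudocount of 0.1 (BT4 -0.033, BT3 -0.71).

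Leaving out each time point in turn, the LD level difference ranged from -0.64 to -0.42 for BT2, from -1.06 to -0.58 for BT4 and from -1.14 to -0.75 for BT5. The LD span in F. bidentis ranged from 0.46 to 1.28 for BT2 and from 0.88 to 1.74 for BT5, and the difference curve of BT5 from 3.02 to 3.84. By day after a lit night, BT4 in F. bidentis ranged from 0.93 to 1.79 and BT2 in F. robusta from -0.88 to -0.15. Between lit nights in F. bidentis, BT2 ranged from -0.24 to 0.11, BT4 from -1.08 to 1.08, BT5 from -1.10 to 0.997 and BT3 from -0.90 to 0.95. The steps of 0.5 RPM limit values near 0, and the depth per library was not used here.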
